A study of Mus musculus with 21 samples.

Results

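The Polycomb complex genes described here were 10 subunits of the Polycomb repressive complexes PRC2 and PRC1, followed in mouse embryonic stem cells (ESCs) with and without the RNA helicase DDX6. They were chosen by name as subunits of these complexes. Each symbol was matched to the Ensembl gene of the count tables, and all 10 were found among 51467 genes and among the 14518 genes that passed the filter on low counts and were tested. PRC2 was represented by 6 genes, the methyltransferases *Ezh2* and *Ezh1*, the core subunits *Eed* and *Suz12*, and the accessory subunits *Jarid2* and *Mtf2*. PRC1 was represented by 4 genes, the ubiquitin ligases *Rnf2* and *Ring1*, *Bmi1* and *Cbx7*.

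The series compared 3 wild-type cultures of ESCs with 4 *Ddx6* KO cultures, 2 from each of 2 clones that had been made from V6.5 ESCs with Cas9 and the same guide RNA, so that the KO group holds a pair of clonal lines rather than 4 independent knockouts. All cultures were kept in serum medium with LIF and the 2i inhibitors PD0325901 and CHIR99021, and all, wild type included, received 500 µM 4-thiouridine (4sU) for 30 min. RNA from a culture was then divided between a 4sU library, which holds the RNA made during the pulse, and a total RNA library depleted of rRNA, which gave 14 libraries. The ratio of total over 4sU RNA is the measure of mRNA stability used in the study, and it is relative because each library is scaled to its own total.

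Polycomb complexes keep developmental genes silent. PRC2 methylates lysine 27 of histone H3 through EZH2 or EZH1, both of which need EED and SUZ12, and JARID2 and MTF2 belong to alternative forms of PRC2 and help to bring it to CpG-rich DNA. PRC1 places ubiquitin on histone H2A through RNF2 (RING1B) or RING1 (RING1A). PRC1 holds a PCGF protein such as BMI1, and its canonical form also carries a CBX protein such as CBX7, which reads the H3K27 mark. In ESCs, PRC2 and PRC1 occupy genes of differentiation, the Hox genes among them, and CBX7 is the main CBX protein.

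Library totals were 2441639 to 3570192 counts in 4sU RNA and 5724179 to 7369651 in total RNA, and levels are given as CPM, counts per 1000000 counts of the tested genes in a library, after scaling with the TMM method. Counts of the 10 genes in single libraries ran from 25 to 5620, so that *Ring1*, the lowest, carried the largest counting error. *Ddx6* in total RNA was at 335, 385 and 393 CPM in wild type, at 57.5 and 68 CPM in the cultures of clone 1, and at 23.2 and 21.6 CPM in those of clone 2. Its fall, by 3.12 in log2 units (SE 0.32, adjusted p = 9.2e-06, edgeR quasi-likelihood test), matched the labels, while in 4sU RNA the log2 fold change was -0.41 (adjusted p = 0.348). The 6 ESC markers, among them *Pou5f1*, *Nanog* and *Sox2*, summed to 4127 to 4296 CPM in wild-type and 4212 to 4370 CPM in KO total RNA. This sum hides opposite changes of single markers, called at an adjusted p below 0.05 (edgeR). In total RNA 3 rose and 1 fell, with log2 fold changes from -0.51 to 0.59. In 4sU RNA 4 rose and 1 fell, with values from -0.65 to 0.51. The 8 fibroblast feeder markers summed to 12.3 to 16 CPM in wild-type and 16 to 17.7 CPM in KO total RNA, with *Dcn* and *Postn* at 0 counts in both. Sums in total RNA were 1.69 to 2.96 and 2.01 to 3.15 CPM for 4 trophoblast markers, 4.94 to 7.82 and 6.23 to 7.56 CPM for 4 primitive endoderm markers, and 87.9 to 107 and 98.5 to 110 CPM for 4 neural markers, in wild type and KO. In 4sU RNA the trophoblast sum was lower in KO, at 7.97 to 21.6 CPM in wild type and 3.03 to 7.06 CPM in KO, where the 1 trophoblast marker tested fell. Of the 3 feeder markers tested, 2 rose and 1 fell in total RNA. The part of these markers in the results below was not tested. In such bulk samples, fewer cells with an RNA and less of that RNA per cell cannot be told apart.

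Among the Polycomb complex genes, 4 rose and none fell in 4sU RNA, 4 rose and 3 fell in total RNA, and 1 fell in total over 4sU RNA, at an adjusted p below 0.05. None fell in 4sU RNA at an unadjusted p below 0.05 or with DESeq2 either, and none changed 2-fold. *Ezh2*, *Ezh1*, *Jarid2* and *Bmi1* were the genes that rose, by 1.22-fold to 1.63-fold in 4sU RNA and by 1.13-fold to 1.27-fold in total RNA. *Eed*, *Suz12* and *Mtf2* were those that fell in total RNA, to 0.886, 0.765 and 0.892 of the wild-type level, and *Ezh2* was the one that fell in total over 4sU RNA, to 0.778. Of all genes tested, 41.6% were called in 4sU RNA, 20.6% as higher and 21.0% as lower, so that 4 called of 10 is close to the background. In total RNA the background was 50.5%, with 19.5% higher and 31.0% lower, against 7 of 10 members. In total over 4sU RNA it was 12.4%, with 3.79% higher and 8.58% lower, against 1 of 10. Leaving out wild-type replicate 2 left 2 genes called in 4sU RNA and 0 in total over 4sU RNA, while 4 were called in total over 4sU RNA without wild-type replicate 3 and 2 without replicate 2 of clone 2. Without wild-type replicate 2, the calls over all genes went from 2984 higher and 3050 lower to 2428 and 2561 in 4sU RNA. In total over 4sU RNA they went from 550 and 1246 to 358 and 668. They were 437 and 990 without wild-type replicate 3, and 509 and 1109 without replicate 2 of clone 2. The median log2 fold change of the members was 0.18 in 4sU RNA, -0.02 in total RNA and -0.19 in total over 4sU RNA, beside 0.00, -0.10 and -0.09 for all tested genes.

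Scaling affected these counts. With scaling by library size alone, the median of all genes rose by 0.21 in 4sU RNA and by 0.16 in total RNA, and the calls over all genes went from 2984 higher and 3050 lower to 5285 and 1838 in 4sU RNA and from 2829 and 4498 to 4277 and 2814 in total RNA. With TMM applied within each assay, total RNA gave 3606 higher and 3495 lower. Of the 10 genes, 4 rose and 1 fell in total RNA under either scaling, the calls of *Eed* and *Mtf2* being lost, and 8 rose in 4sU RNA with library size alone. For total over 4sU RNA, 550 higher and 1246 lower became 734 and 577 with TMM within each assay, 462 and 1820 with library size alone, and 601 and 763 with DESeq2. Taking changes relative to the median of all tested genes takes this shift out. With the main scaling they were then 0.44 for *Ezh2*, 0.32 for *Ezh1*, 0.27 for *Jarid2* and 0.43 for *Bmi1* in total RNA. Such values are also given below for the genes called lower in total RNA and for *Ezh2* in total over 4sU RNA.

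**Figure D1:**
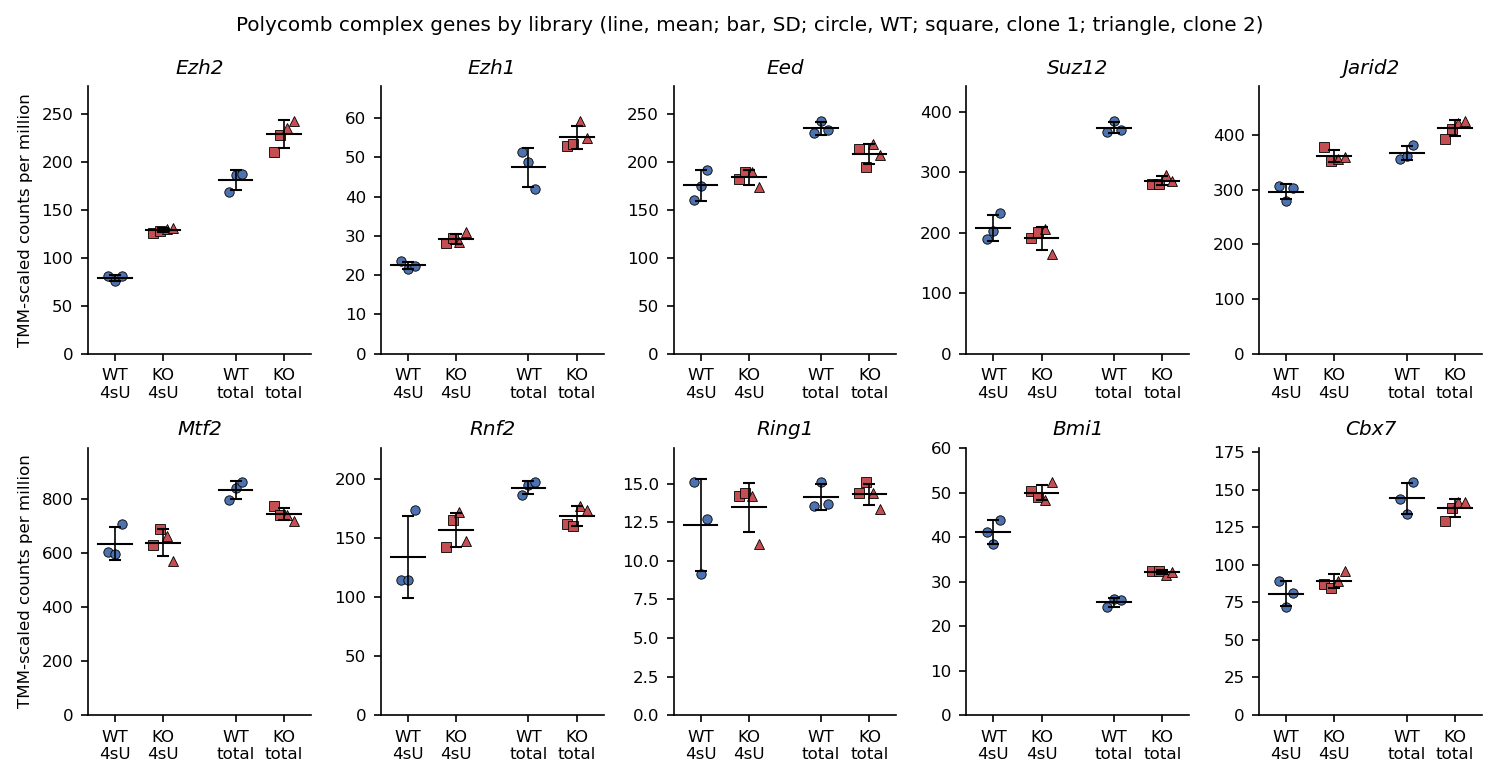
Levels of the 10 Polycomb complex genes in each library, in TMM-scaled CPM (y axis, from 0, its own range per gene), for wild type (circles) and *Ddx6* KO clone 1 (squares) and clone 2 (triangles) in 4sU and total RNA (x axis), with the mean and the SD over 3 wild-type or 4 KO cultures. The KO libraries of *Ezh2*, *Ezh1*, *Jarid2* and *Bmi1* lie above all wild-type libraries in both assays, and those of *Eed*, *Suz12*, *Mtf2* and *Rnf2* lie below them in total RNA only.

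Per kilobase of the deposited exonic length, *Mtf2* had the highest level of the 10 genes, at 205 ± 8.28 CPM per kb in wild-type total RNA (SD, n = 3) and the 98.1 percentile of tested genes. *Eed* followed at 114 ± 3.35 and *Suz12* at 85.6 ± 2.21 CPM per kb. *Ezh2* at 64.5 ± 3.75, *Jarid2* at 59.5 ± 2.1 and *Rnf2* at 57.6 ± 1.69 CPM per kb came next, and neighbours among these 3 overlapped in range. *Cbx7* was at 42.4 ± 3.12 CPM per kb. *Ezh1* at 7.8 ± 0.798, *Ring1* at 6.95 ± 0.429 and *Bmi1* at 6.85 ± 0.272 CPM per kb formed a low group, near the middle of tested genes (percentiles 48.9, 46.5 and 46.2), whose neighbours also overlapped. In KO total RNA *Mtf2* (183 ± 5.4 CPM per kb, n = 4) and *Eed* (101 ± 5.14) stayed at the top, and *Ezh2*, at 81.9 ± 5.09, stood above *Jarid2* at 67 ± 2.45 and *Suz12* at 65.4 ± 1.57, the last pair overlapping. In 4sU RNA the wild-type order was led by *Mtf2* (156 ± 15.1 CPM per kb), *Eed* (85 ± 7.72), *Jarid2* (48.2 ± 2.39) and *Suz12* (47.6 ± 4.93), and *Ezh1* was lowest at 3.7 ± 0.154.

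*Ezh2* encodes the main H3K27 methyltransferase of dividing cells. It lies on the minus strand of chromosome 6 from 47530139 to 47595030 (mm10) and has 2802 exonic bases. In 4sU RNA it was at 81.1, 75.8 and 81.1 CPM in wild type, at 126 and 128 CPM in the cultures of clone 1, and at 130 and 131 CPM in those of clone 2. Every KO library stood above every wild-type library. The log2 fold change was 0.70 (SE 0.08, adjusted p = 7.4e-11). In total RNA the values were 169, 186 and 188 CPM in wild type and 210, 228, 236 and 243 CPM in KO, again without overlap, for an estimated log2 fold change of 0.34 (SE 0.06, adjusted p = 2.2e-06). The rise in total RNA was thus smaller than that in 4sU RNA. This difference, the change of total over 4sU RNA, was -0.36 (SE 0.10, adjusted p = 0.0099), or -0.27 relative to the median of all tested genes. It was -0.31 (adjusted p = 0.101) without wild-type replicate 2 and -0.31 (adjusted p = 0.0893) against clone 2 alone. It was -0.27 (adjusted p = 0.0729) with TMM within each assay, and -0.21 (adjusted p = 0.369) with the re-sequencing run alone.

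The region around the start of *Ezh2* is shown because *Ezh2* had the largest change in 4sU RNA of the 10 genes, beside that of *Suz12*, the gene with the largest fall in total RNA. Both run from 250 bases before the annotated start to 50 bases after it (RefSeq, GRCm38.p6), 5′ to 3′ on the strand of the gene. Capitals mark exact matches, on either strand, to the E2F motifs TTTCCCGC and TTTGGCGC, to the NF-Y motif CCAAT and to the E-box CACGTG.
*Ezh2*, chr6:47594981-47595280, minus strand: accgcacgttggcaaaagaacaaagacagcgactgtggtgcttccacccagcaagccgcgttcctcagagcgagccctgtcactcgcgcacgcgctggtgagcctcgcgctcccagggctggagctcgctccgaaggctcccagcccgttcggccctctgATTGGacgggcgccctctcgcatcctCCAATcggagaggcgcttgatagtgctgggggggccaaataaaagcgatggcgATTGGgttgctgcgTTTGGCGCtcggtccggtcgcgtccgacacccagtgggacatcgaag
*Suz12*, chr11:79992856-79993155, plus strand: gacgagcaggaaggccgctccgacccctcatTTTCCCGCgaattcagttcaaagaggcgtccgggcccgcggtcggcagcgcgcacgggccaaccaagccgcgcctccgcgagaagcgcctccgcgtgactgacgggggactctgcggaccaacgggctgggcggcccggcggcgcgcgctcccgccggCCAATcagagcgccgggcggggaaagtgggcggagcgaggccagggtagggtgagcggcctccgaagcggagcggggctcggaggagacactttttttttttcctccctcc
*Ezh2* has 3 CCAAT matches, which begin 90, 64 and 11 bases upstream of the start, and TTTGGCGC 3 bases downstream. *Suz12* has TTTCCCGC 219 bases upstream and CCAAT 61 bases upstream. All 10 genes had an entry, with 12 start regions in all, and no match overlapped another. An E2F motif was in 2 of the 12, those shown, and in 1.56% of 32851 start regions of this length. CCAAT was in 7 of the 12 and in 37.4% of all, and CACGTG in 1 and in 7.15%. The CpG count per region was 2 to 41 beside a median of 7, and was lowest in an internal start of *Mtf2*. The matches describe letters only.

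Chromosome 6 as a whole was higher in *Ddx6* KO cells. Its 735 tested genes had a median log2 fold change of 0.53 in 4sU RNA, 0.43 in total RNA and -0.13 in total over 4sU RNA, beside -0.02, -0.12 and -0.09 for the 13783 tested genes elsewhere. *Ezh2* is the only one of the 10 genes on this chromosome. Relative to the chromosome 6 median, its log2 fold change was 0.17 in 4sU RNA, -0.09 in total RNA and -0.23 in total over 4sU RNA, at the 63.7, 42.2 and 22.9 percentile of the genes there. The part of the chromosome in the rise of *Ezh2* was not tested. On the chromosomes of the other 9 genes the medians were -0.06 to 0.05 in 4sU RNA and -0.16 to -0.06 in total RNA.

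**Figure D2:**
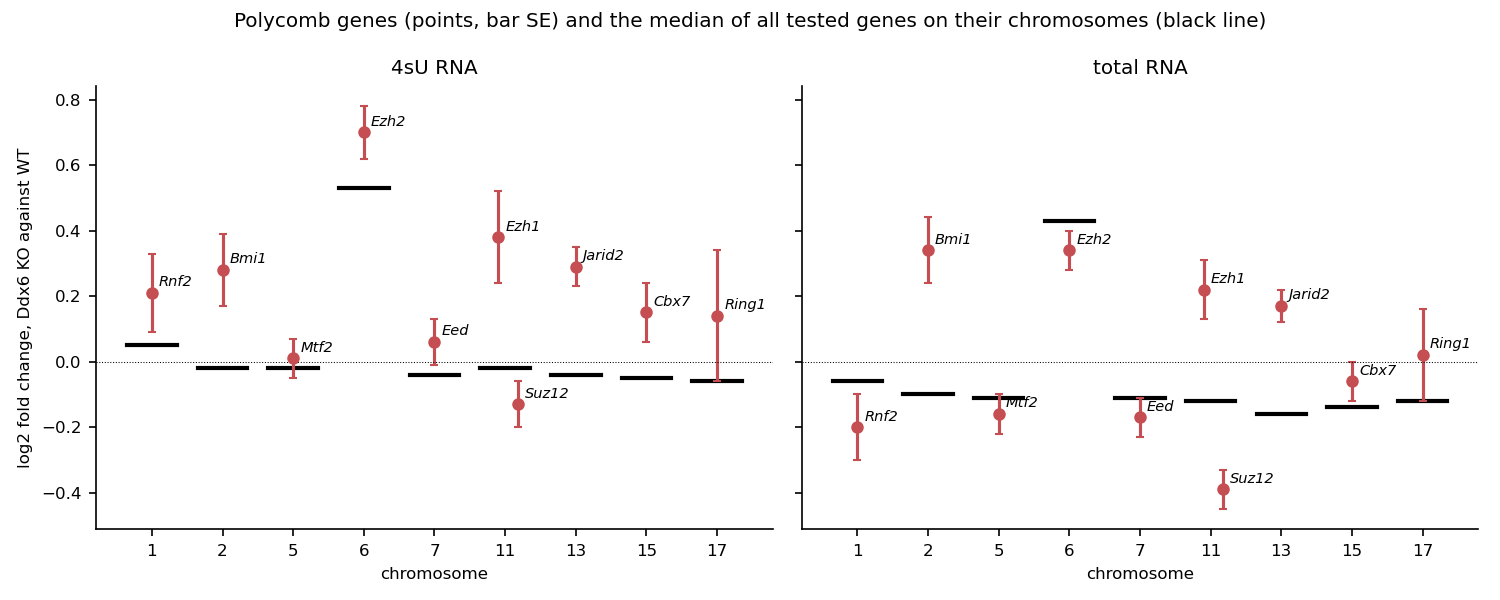
Log2 fold change of each Polycomb complex gene (points, with the SE as bars) and the median of all tested genes on its chromosome (black lines) for *Ddx6* KO against wild type (y axis), by chromosome (x axis), in 4sU RNA (left) and total RNA (right). The chromosome 6 line stands at 0.53 and 0.43, beside *Ezh2* at 0.70 and 0.34, and all other lines lie close to 0.

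*Ezh1*, the paralogue of *Ezh2*, is the methyltransferase known from resting and differentiated cells. It lies on the minus strand of chromosome 11 from 101191115 to 101226463, with 6081 exonic bases. In 4sU RNA it was at 23.5, 21.6 and 22.4 CPM in wild type and at 28.2, 29.5, 28.4 and 30.9 CPM in KO, on 53 to 117 counts. The groups stood apart, with an estimated log2 fold change of 0.38 (SE 0.14, adjusted p = 0.0197). In total RNA it was at 51.4, 48.9 and 42 CPM in wild type and at 52.9, 53.3, 59.3 and 55 CPM in KO, for 0.22 (SE 0.09, adjusted p = 0.0253). The highest wild-type library was close to the lowest KO library. The 4sU call was lost without wild-type replicate 2 (0.35, adjusted p = 0.0819), with DESeq2 (0.35, adjusted p = 0.0527), in either sequencing run alone (0.31, adjusted p = 0.157 and 0.53, adjusted p = 0.0627) and for clone 1 alone (0.37, adjusted p = 0.0741). The total RNA call was lost without wild-type replicate 3 (0.14, adjusted p = 0.245) and without replicate 1 of clone 2 (0.20, adjusted p = 0.0657), and against clone 1 alone (0.19, adjusted p = 0.12).

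The start region of *Ezh1* is printed for comparison with that of its paralogue, on the same terms, and holds none of the 3 motifs.
*Ezh1*, chr11:101226414-101226713, minus strand: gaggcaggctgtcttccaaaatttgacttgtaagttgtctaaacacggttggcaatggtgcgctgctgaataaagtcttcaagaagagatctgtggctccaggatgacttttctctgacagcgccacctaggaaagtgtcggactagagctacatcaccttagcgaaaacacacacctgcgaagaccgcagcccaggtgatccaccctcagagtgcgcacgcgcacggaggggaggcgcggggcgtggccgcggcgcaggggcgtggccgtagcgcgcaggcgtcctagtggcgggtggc
Per kilobase, *Ezh2* RNA exceeded *Ezh1* RNA in every library. The ratio of *Ezh2* to *Ezh1* in 4sU RNA was 7.49, 7.61 and 7.84 in wild type and 9.73, 9.44, 9.93 and 9.24 in KO. In total RNA it was 7.13, 8.25 and 9.71 in wild type and 8.61, 9.3, 8.65 and 9.59 in KO. The KO ratios lay above all wild-type ratios in 4sU RNA and within their range in total RNA.

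*Suz12*, whose product holds PRC2 together, had the largest fall of the 10 genes in total RNA. It lies on the plus strand of chromosome 11 from 79993106 to 80034123, with 4373 exonic bases. Total RNA was at 367, 385 and 370 CPM in wild type, at 281 and 281 CPM in the cultures of clone 1, and at 296 and 286 CPM in those of clone 2. The groups were far apart relative to their spread. The log2 fold change was -0.39 (SE 0.06, adjusted p = 1.6e-07), or -0.29 relative to the median of all tested genes, with the main scaling, with TMM within each assay and with library size alone. In 4sU RNA the values were 190, 202 and 232 CPM in wild type and 192, 201, 206 and 164 CPM in KO. These overlapped, and the log2 fold change of -0.13 (SE 0.07) did not pass (adjusted p = 0.13), though it was -0.19 (adjusted p = 0.047) without wild-type replicate 1. The change of total over 4sU RNA was -0.26 (SE 0.09, adjusted p = 0.0567) and was not called in 14 of 20 alternatives. It was -0.18 (adjusted p = 0.391) against clone 2 alone and -0.17 (adjusted p = 0.286) with TMM within each assay. Without wild-type replicate 1 or 2 it was -0.21 (adjusted p = 0.228 and 0.26). The 6 alternatives in which it passed included the culture as a block (-0.26, adjusted p = 0.0275) and clone 1 alone (-0.31, adjusted p = 0.0445). It also passed without wild-type replicate 3 (-0.35, adjusted p = 0.0154) and without replicate 2 of clone 2 (-0.32, adjusted p = 0.0129).

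*Eed* encodes the PRC2 subunit that binds the H3K27 mark and stimulates the enzyme. It lies on the minus strand of chromosome 7 from 89954654 to 89980983, with 2067 exonic bases. Its 4sU RNA was at 160, 175 and 192 CPM in wild type and at 182, 190, 190 and 174 CPM in KO, and these overlapped, with an estimated log2 fold change of 0.06 (SE 0.07, adjusted p = 0.485). Its total RNA was at 230, 243 and 233 CPM in wild type and at 214, 195, 219 and 207 CPM in KO, all KO libraries being lower. The log2 fold change was -0.17 (SE 0.06, adjusted p = 0.0107), or -0.08 relative to the median of all tested genes. The call was lost without wild-type replicate 2 (-0.15, adjusted p = 0.0667), without replicate 2 of clone 1 (-0.13, adjusted p = 0.0841), for clone 2 alone (-0.13, adjusted p = 0.14), with TMM within each assay (-0.08, adjusted p = 0.246) and with library size alone (-0.02, adjusted p = 0.827). In total over 4sU RNA, *Eed* was lower in every KO culture, with an estimated log2 fold change of -0.24 (SE 0.09, adjusted p = 0.0725). This change was not called in 17 of 20 alternatives and passed in 3, 1 of them without wild-type replicate 3 (-0.31, adjusted p = 0.0328).

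The 2 accessory subunits of PRC2 differed. *Jarid2*, which binds DNA and is itself a substrate of PRC2, lies on the plus strand of chromosome 13 from 44730774 to 44921643. In 4sU RNA it was at 307, 280 and 303 CPM in wild type and at 379, 353, 356 and 359 CPM in KO, for an estimated log2 fold change of 0.29 (SE 0.06, adjusted p = 5.6e-05). In total RNA it was at 357, 361 and 381 CPM in wild type and at 392, 411, 422 and 426 CPM in KO, for 0.17 (SE 0.05, adjusted p = 0.00528). Both calls of *Jarid2*, like those of *Ezh2* in these assays, held under every alternative run, apart from the rule that also asks for a 2-fold change.

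*Mtf2*, a Polycomb-like protein that binds unmethylated CpG DNA, lies on the plus strand of chromosome 5 from 108065742 to 108109004. Its 4sU RNA was at 601, 596 and 705 CPM in wild type and at 629, 689, 663 and 570 CPM in KO. The groups overlapped fully, with an estimated log2 fold change of 0.01 (SE 0.06, adjusted p = 0.94). Its total RNA was at 794, 840 and 860 CPM in wild type and at 771, 738, 741 and 718 CPM in KO. All KO libraries were lower, for -0.16 (SE 0.06, adjusted p = 0.0117), or -0.07 relative to the median of all tested genes. This call was lost with TMM within each assay (-0.07, adjusted p = 0.29), with library size alone (-0.01, adjusted p = 0.92) and for clone 1 alone (-0.12, adjusted p = 0.111).

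*Bmi1* was called in 4sU and total RNA, while the calls of *Rnf2*, given further on, depended on the cultures and on the block. *Bmi1* encodes PCGF4, which activates the ligase of canonical PRC1, and lies on the plus strand of chromosome 2 from 18677018 to 18686629. In 4sU RNA it was at 41.2, 38.5 and 43.8 CPM in wild type and at 50.3, 49.1, 48.4 and 52.3 CPM in KO. In total RNA it was at 24.2, 26 and 25.8 CPM in wild type and at 32.4, 32.3, 31.4 and 32.1 CPM in KO. The groups stood apart in both assays. The log2 fold change was 0.28 in 4sU RNA (SE 0.11, adjusted p = 0.0299) and 0.34 in total RNA (SE 0.10, adjusted p = 0.00311). The call in 4sU RNA rested on 93 to 198 counts per library. It was lost without wild-type replicate 1 (0.28, adjusted p = 0.0682), wild-type replicate 2 (0.23, adjusted p = 0.151) or replicate 2 of clone 2 (0.27, adjusted p = 0.0546), with DESeq2 (0.25, adjusted p = 0.0768) in the single-end (0.33, adjusted p = 0.0614) or the re-sequencing run alone (0.23, adjusted p = 0.31), and against clone 1 (0.28, adjusted p = 0.0873) or clone 2 alone (0.30, adjusted p = 0.0627), while the call in total RNA held in every alternative other than the 2-fold rule. Its start region is shown because it rose in both assays and is the one of the 12 with a CACGTG match, 215 bases upstream of the start.
*Bmi1*, chr2:18676768-18677067, plus strand: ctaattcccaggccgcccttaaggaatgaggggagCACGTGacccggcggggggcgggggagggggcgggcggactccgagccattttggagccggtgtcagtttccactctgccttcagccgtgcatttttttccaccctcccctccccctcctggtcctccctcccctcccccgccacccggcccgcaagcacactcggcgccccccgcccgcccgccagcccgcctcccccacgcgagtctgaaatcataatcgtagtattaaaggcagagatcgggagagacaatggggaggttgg

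*Rnf2*, the main H2A ubiquitin ligase of ESCs, lies on the minus strand of chromosome 1 from 151469405 to 151500955. In 4sU RNA it was at 114, 114 and 174 CPM in wild type and at 142, 165, 172 and 147 CPM in KO. Wild-type replicate 3 stood above the other 2 wild-type libraries by more than the whole KO range. In total RNA the same culture did not stand apart, with 186, 195 and 197 CPM in wild type and 162, 160, 177 and 174 CPM in KO. The log2 fold changes were 0.21 in 4sU RNA (SE 0.12, adjusted p = 0.156), -0.20 in total RNA (SE 0.10, adjusted p = 0.0994) and -0.41 in total over 4sU RNA (SE 0.15, adjusted p = 0.0874). None passed. Without wild-type replicate 3 they were 0.45 (adjusted p = 2.71e-05), -0.18 (adjusted p = 0.0245) and -0.63 (adjusted p = 5.43e-05), so that all 3 passed once this culture was left out. Without wild-type replicate 1 none passed, at 0.11 (adjusted p = 0.495), -0.22 (adjusted p = 0.0664) and -0.33 (adjusted p = 0.199). Nor did any pass without wild-type replicate 2, at 0.10 (adjusted p = 0.539), -0.19 (adjusted p = 0.106) and -0.29 (adjusted p = 0.266). With the culture as a block, which compares both RNAs of a culture directly, the change of total over 4sU RNA was -0.42 (adjusted p = 0.00114).

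*Ring1*, the paralogue of *Rnf2*, lies on the minus strand of chromosome 17 from 34020792 to 34024680. Its 4sU RNA was at 15.1, 9.16 and 12.7 CPM in wild type and at 14.2, 14.4, 14.2 and 11.1 CPM in KO, on 25 to 50 counts. Its total RNA was at 13.6, 15.1 and 13.7 CPM in wild type and at 14.4, 15.1, 14.4 and 13.4 CPM in KO. The groups overlapped in both, with log2 fold changes of 0.14 (SE 0.20, adjusted p = 0.597) and 0.02 (SE 0.14, adjusted p = 0.926). The 95% interval of the change in total RNA ran from -0.26 to 0.30 on the log2 scale, so a change of either sign within this range remains possible. The per-kilobase ratio of *Rnf2* to *Ring1* in total RNA was 8.33, 7.82 and 8.74 in wild type and 6.84, 6.43, 7.49 and 7.88 in KO, with one KO culture inside the wild-type range.

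*Cbx7* lies on the minus strand of chromosome 15 from 79915807 to 79932652. It was at 89.1, 72.2 and 81.1 CPM in wild-type and at 87, 84.8, 89.2 and 95.8 CPM in KO 4sU RNA, and at 144, 134 and 155 CPM in wild-type and 129, 138, 142 and 142 CPM in KO total RNA. The groups overlapped in both assays. Its log2 fold change was 0.15 in 4sU RNA (SE 0.09, adjusted p = 0.157) and -0.06 in total RNA (SE 0.06, adjusted p = 0.424).

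Every KO library lay on one side of every wild-type library for 4 of the 10 genes in 4sU RNA, 8 in total RNA and 2 in total over 4sU RNA. The same held for 41.7%, 52.4% and 22.9% of all tested genes. *Rnf2* was the gene that stood apart in total RNA without being called.

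**Figure D3:**
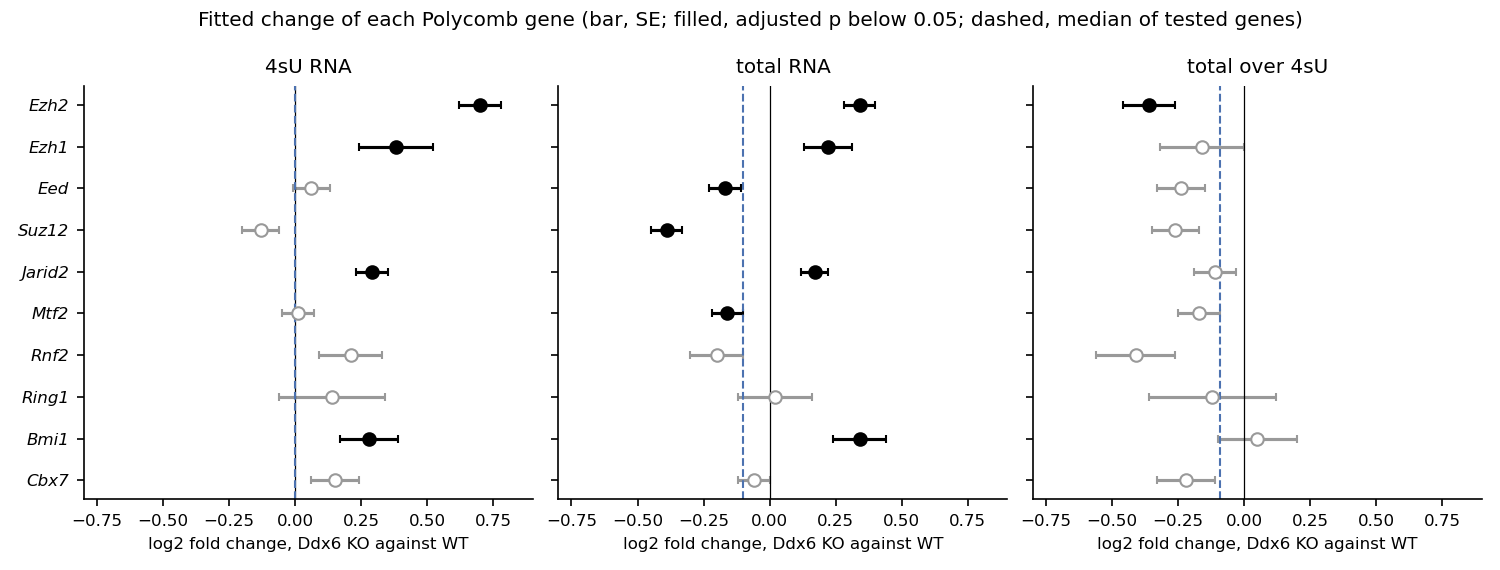
Log2 fold change of each Polycomb complex gene in *Ddx6* KO against wild type (x axis) in 4sU RNA, total RNA and total over 4sU RNA, with the SE as bars, filled points for an adjusted p below 0.05 and the median of all tested genes as a dashed line. In 4sU RNA 9 of the 10 values are above 0, and in total over 4sU RNA 9 of 10 are below 0.

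Total over 4sU RNA, taken in each culture as the log2 ratio of CPM with 0.5 added, ordered the genes in wild type from *Ezh2* at 1.18 ± 0.12 (SD, n = 3) and *Ezh1* at 1.05 ± 0.14 to *Bmi1* at -0.69 ± 0.11. The middle of all tested genes, from the lower to the upper quartile, was -1.11 to 0.87 with a median of 0.07. *Bmi1*, at the 31.7 percentile, was thus the one gene of the 10 with less total than 4sU RNA relative to the library, and the other 9 were above the median. *Suz12* was at 0.85 ± 0.15, *Cbx7* at 0.84 ± 0.13, *Rnf2* at 0.55 ± 0.32, *Eed* at 0.43 ± 0.13, *Mtf2* at 0.39 ± 0.10, *Jarid2* at 0.30 ± 0.08 and *Ring1* at 0.22 ± 0.43. In KO cells, *Bmi1* was again lowest at -0.63 ± 0.04 (SD, n = 4), and *Ezh1* at 0.90 ± 0.10 and *Ezh2* at 0.82 ± 0.07 were highest.

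*Ezh2* was at 1.05, 1.29 and 1.21 in the wild-type cultures and at 0.73, 0.83, 0.86 and 0.88 in the KO cultures, all lower. *Eed* was at 0.52, 0.47 and 0.28 in wild type and at 0.23, 0.03, 0.20 and 0.25 in KO, also all lower but with a narrow gap. For *Rnf2*, 0.71, 0.77 and 0.18 in wild type stood beside 0.19, -0.05, 0.04 and 0.24 in KO, and wild-type replicate 3 fell among the KO cultures. *Bmi1* is the gene of the 10 with a positive change, at 0.05 (SE 0.15, adjusted p = 0.877), and those of *Ezh1* (-0.16), *Jarid2* (-0.11), *Mtf2* (-0.17), *Ring1* (-0.12) and *Cbx7* (-0.22) were not called. All 9 negative values lay below the median of all tested genes, -0.09. An unadjusted p below 0.05 was reached by 6 of the 10, but the share of all tested genes that reached it is not given here. These 6 therefore cannot be set against a background, and the 12.4% given above is for an adjusted p. With the culture as a block, 3 genes were called, *Ezh2*, *Suz12* and *Rnf2*, in place of 1, while over all genes 622 were then higher and 1414 lower, in place of 550 and 1246.

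**Figure D4:**
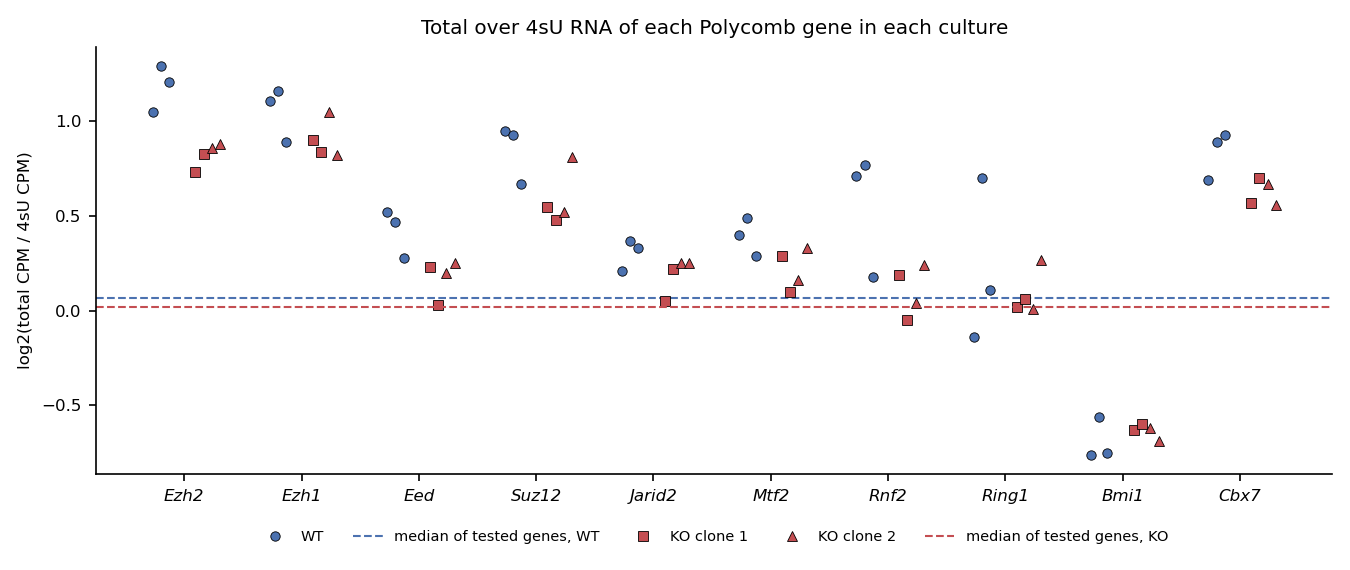
Log2 ratio of total to 4sU RNA of the 10 Polycomb complex genes (y axis) in each wild-type culture (circles) and each culture of *Ddx6* KO clone 1 (squares) and clone 2 (triangles), by gene (x axis), with the medians of all tested genes in wild type (0.07) and KO (0.02) as dashed lines. *Ezh2* and *Eed* are lower in all 4 KO cultures than in all 3 wild-type cultures, and *Bmi1* lies below both medians.

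The KO clones did not differ detectably in any of the 10 genes. Clone 2 minus clone 1 was between -0.19 and 0.11 on the log2 scale in 4sU RNA, between -0.09 and 0.13 in total RNA and between -0.05 and 0.14 in total over 4sU RNA, with a lowest adjusted p of 0.803, and none had an unadjusted p below 0.05. The 95% intervals of the 10 genes together spanned -0.65 to 0.36, -0.44 to 0.37 and -0.48 to 0.69, with limits set mostly by *Ring1*. Other genes had narrower intervals, such as -0.24 to 0.05 for *Mtf2* in 4sU RNA. A difference between the clones within the interval of a gene remains possible for that gene. For *Ezh2* in total RNA the interval was -0.02 to 0.27.

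For *Rnf2* and *Ezh2*, which had the largest estimated changes in total over 4sU RNA, the tested genes with the most similar levels over the 14 libraries were sought by the Pearson correlation of log2 CPM. For *Ezh2* these were *Kif1b* (r = 0.994), *Pdia4* (0.992) and *Hibadh* (0.991), of which *Pdia4* and *Hibadh* also lie on chromosome 6. For *Rnf2* they were *Nup153* (0.939), *Ltv1* (0.925) and *Larp4* (0.923), on chromosomes 13, 10 and 15. The correlations run over both assays and both genotypes, and were not computed within an assay.

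Further subunits and partners of both complexes, 34 genes, were all tested. In 4sU RNA 12 rose and 6 fell, in total RNA 11 rose and 6 fell, and in total over 4sU RNA 4 rose and 4 fell, with medians of 0.15, 0.04 and -0.08. Of all tested genes, 20.6% rose and 21.0% fell in 4sU RNA, 19.5% and 31.0% in total RNA, and 3.79% and 8.58% in total over 4sU RNA. In total RNA the larger rises were those of *Scml2* (1.11, SE 0.36, adjusted p = 0.00752) and *Lcor* (0.92, SE 0.09, adjusted p = 1.6e-12). *Scml2*, a PRC1-associated protein, had only 6 to 35 counts per total RNA library. It reached 3 CPM in KO total RNA only, and so passed the filter through the group where it was high, which favours a rise. *Lcor*, whose locus encodes a PRC2 partner, was at 24.4, 25.7 and 22.8 CPM in wild type and at 43.3, 43.2, 47.4 and 49.7 CPM in KO. The larger falls were those of *Phf19* (-0.54, SE 0.23, adjusted p = 0.0466), a Polycomb-like protein, *Kdm2b* (-0.44, SE 0.07, adjusted p = 1.2e-07), which brings a variant PRC1 to CpG islands, and *Rbbp4* (-0.44, SE 0.05, adjusted p = 4.1e-10), a histone-binding subunit of PRC2. *Rbbp4* was at 466, 451 and 446 CPM in wild type and at 340, 340, 318 and 345 CPM in KO total RNA, a fall near that of *Suz12*.

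In 4sU RNA *Yaf2* (0.78, SE 0.23, adjusted p = 0.00447), *Phc1* (0.68, SE 0.07, adjusted p = 6.8e-13) and *Scmh1* (0.66, SE 0.16, adjusted p = 6.5e-04), all PRC1 components, rose most. *Phc1*, like *Ezh2*, is on chromosome 6, and its values of 0.68 in 4sU RNA, 0.34 in total RNA (adjusted p = 2.1e-06) and -0.35 in total over 4sU RNA (adjusted p = 0.0052) were close to those of *Ezh2*. The falls were led by *Cbx8* (-1.07, SE 0.25, adjusted p = 4.3e-04), *Cbx2* (-0.80, SE 0.10, adjusted p = 2.5e-09) and *Phf1* (-0.79, SE 0.24, adjusted p = 0.00634).

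*Cbx2* and *Cbx8*, whose products take the place of CBX7 in other cells, thus fell in 4sU RNA, where *Cbx7* was not called. *Cbx2* was at 76.2, 64.9 and 63.3 CPM in wild-type and at 39, 38.5, 38.7 and 39.3 CPM in KO 4sU RNA, while total RNA fell less (-0.33, adjusted p = 3.3e-04) and total over 4sU RNA rose by 0.47 (adjusted p = 0.00896). *Cbx8* gave 0.71 (SE 0.32, adjusted p = 0.15) in total over 4sU RNA on 14 to 53 counts per library. *Cbx2* and *Cbx8* both lie on chromosome 11. Of the other genes in this list, *Phf1* (1.03, adjusted p = 0.0268) and *Lcor* (0.68, adjusted p = 1.8e-04) also rose in total over 4sU RNA, and *Usp7* (-0.46, SE 0.08, adjusted p = 2.4e-05), *Phc1* and *Mga* (-0.30, adjusted p = 0.00892) fell. The value of *Phf1* rested on 22 to 58 counts per library. Its total RNA was not called (0.24, adjusted p = 0.38, edgeR) and overlapped between wild type and KO.

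The 5 genes whose products oppose Polycomb, the H3K27 demethylases *Kdm6a* and *Kdm6b* and the H2A deubiquitinase *Bap1* with its cofactors *Asxl1* and *Asxl2*, were all tested. In 4sU RNA *Kdm6a* (0.31, SE 0.09, adjusted p = 0.00281) and *Asxl1* (0.28, SE 0.08, adjusted p = 0.00358) rose. In total RNA *Kdm6b* (-0.35, SE 0.10, adjusted p = 0.00464) and *Asxl2* (-0.27, SE 0.07, adjusted p = 5.1e-04) fell. In total over 4sU RNA 3 of the 5 fell, *Kdm6b* by 0.47 (adjusted p = 0.0193), *Asxl2* by 0.42 (adjusted p = 0.00163) and *Asxl1* by 0.39 (adjusted p = 0.0063), and none rose. Among all tested genes, 20.6% rose and 21.0% fell in 4sU RNA, and 19.5% rose and 31.0% fell in total RNA. The shares in total over 4sU RNA were 3.79% and 8.58%.

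Genes that Polycomb is known to silence in ESCs were mostly too low to test. Of 39 Hox genes 9 passed the filter, and of 15 other developmental regulators 4 did. The Hox genes summed to 47.2 to 50.8 CPM in wild-type and 36.9 to 45.7 CPM in KO total RNA. In total RNA 10 genes were at 0 counts in all 3 wild-type libraries and 3 at 0 in all 4 KO libraries. A count of 0 throughout is less likely over more libraries, and 20 Hox genes in wild type and 17 in KO stayed under 3 counts. The other regulators summed to 59.3 to 63.5 and 43.6 to 45.2 CPM. Among the 13 tested genes of both lists, 3 fell in 4sU RNA and none rose, and in total RNA 3 fell and 1 rose, beside 21.0% of all tested genes lower in 4sU RNA and 31.0% lower and 19.5% higher in total RNA. *Olig2*, a neural transcription factor, was at 51, 43.2 and 60.4 CPM in wild-type and at 19.1, 23.8, 13.6 and 15.3 CPM in KO 4sU RNA, a fall by 1.53 in log2 units (SE 0.15, adjusted p = 8.0e-12), and it fell by 1.21 in total RNA (adjusted p = 3.8e-10). *Hoxc12* fell by 1.38 in 4sU RNA (adjusted p = 2.6e-09) and by 1.53 in total RNA (adjusted p = 1.4e-07), and *Hoxc13* by 0.92 (adjusted p = 2.9e-04) and 1.05 (adjusted p = 9.2e-06). *Gata4*, an endoderm regulator, rose by 0.65 in total RNA (SE 0.26, adjusted p = 0.0283), on 16 to 47 counts. In total over 4sU RNA none of the 13 was called at an adjusted or unadjusted p below 0.05 (edgeR).

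The study asked how DDX6 acts on targets of the microRNAs of the ESCC family, which is abundant in ESCs, so the 10 genes were searched for sites of the seed of this family. The seed, bases 2 to 8, is in capitals in the mature sequences (RefSeq, GRCm38.p6), where 5 of 9 found for the miR-290 and miR-302 clusters carry it.
miR-291a-3p: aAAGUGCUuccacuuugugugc
miR-294-3p: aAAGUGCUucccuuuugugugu
miR-295-3p: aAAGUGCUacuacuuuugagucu
miR-302b-3p: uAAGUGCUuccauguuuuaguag
miR-302d-3p: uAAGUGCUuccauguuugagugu
In the 3′ UTR of the principal transcript of each gene, the match to the seed, AGCACTT, was found in 1 of the 10 genes, *Ezh1*, once and without the adenine that would make the 8-base site AGCACTTA. The site is shown in capitals with its flanks, on the minus strand of chr11:101192002-101192026 (GRCm38).
*Ezh1* site: agagaacaaAGCACTTtaactctct
Among 11918 tested genes with an annotated 3′ UTR, 16.5% held AGCACTT and 3.39% AGCACTTA. Other forms of the site were not searched. The study took its targets from conserved TargetScan predictions, which were not used here. The 3′ UTRs of the 10 genes had a median of 1867 bases, beside 1040 bases for all, and those of *Ezh2* and *Eed* had 402 and 283 bases.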

How the data were processed

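Nascent (4sU) and total RNA of 3 wild-type and 4 *Ddx6* KO cultures were analysed from the gene counts deposited by the authors. According to the submitters' notes and the study's methods, the authors used cutadapt 1.14 for trimming and STAR 2.5.3a for mapping to mm10, kept unique alignments, and counted reads over Gencode M14 exons by strand with featureCounts 1.5.3. The 4sU libraries were sequenced in 2 runs, one single-end and one paired, which were summed here. The 92 rows of ERCC spike-ins held 0 counts. Replicates are only numbered in the labels, so p-values measure the spread between these samples, which may be technical.

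Genes that reached 3 CPM in 3 or more of the 14 libraries were tested with the edgeR (4.0.16, R 4.3.3) quasi-likelihood test, robust, with TMM over all libraries. Genotype, assay and their interaction were fitted together, and the interaction is the change of total over 4sU RNA. Benjamini-Hochberg adjustment ran over all 14518 tested genes of a contrast, with calls at an adjusted p below 0.05. The rule of the study also asks for a log2 fold change above 1. All contrasts share libraries, so changes are given side by side. Fits were tested on simulated data. Library totals, and a limit of 3 counts for a count of 0 (at most 1.23 CPM in 4sU RNA), cover counting error only. Replicates of a group and assay had Spearman correlations of 0.978 to 0.995 over genes.

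The alternatives were DESeq2 (1.42.0), limma-voom (limma 3.58.1), other scalings and filters, each 4sU run alone, each clone alone, each culture left out, and blocks. The 4sU and total libraries of a culture came from 1 extraction and are paired by design. Their deviations from the group means correlated at 0.00311 to 0.12 over 9170 genes.

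The members and lists were chosen with earlier results of these data known. Beside the 10 members, the genes named are *Ddx6*, up to 3 called genes with the largest rise and up to 3 with the largest fall per contrast in each list (other Polycomb subunits, opposing enzymes, Polycomb targets), and the 3 genes most correlated with each of the 2 members that changed most in total over 4sU RNA. Further genes on chromosome 6, *Cbx8* in total over 4sU RNA and the other values of *Cbx2* were added after their values were seen. Some genes that the rule names are not reported here. Protein sequences and the remaining libraries of the study were not analysed here.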

Additional observations from a re-analysis of the deposited data

Results flagged for a closer look

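In 2 of 30 groups of 4 KO values, a single culture stood far from the other 3, where chance alone flags about 1 group in 20. For *Jarid2* in total over 4sU RNA, replicate 1 of clone 1 was at 0.05 on the log2 scale beside 0.22, 0.25 and 0.25, a gap of 0.847 of the range of the group. For *Ring1* in 4sU RNA, replicate 2 of clone 2 was at 11.1 CPM, on 42 counts, beside 14.2, 14.4 and 14.2 CPM, a gap of 0.932 of the range. Groups of 3 wild-type cultures were not examined in this way.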

How the results depend on the processing

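Of 560 values of single genes under the alternatives, 482 kept their direction and their side of the threshold, 34 lost the call, 26 gained it and 18 changed sign. *Ezh2* and *Jarid2* in both RNAs, and *Suz12* and *Bmi1* in total RNA, kept direction and call throughout, other than under the 2-fold rule. In 4sU RNA, 4 genes became 2 with DESeq2, with either sequencing run alone and with clone 1 alone, 8 with library size alone, and 2 to 5 with a culture left out. The calls over all genes changed too, from 2984 higher and 3050 lower to 2504 and 3159 with DESeq2. They were 2410 and 2482 in the single-end run, 1918 and 2112 in the re-sequencing run, and 2499 and 2578 with clone 1 alone. In total RNA, 7 became 6 to 7 with a culture left out, 8 with limma-voom, and 5, of which 4 rose and 1 fell, with TMM within each assay, library size alone or no filter. Over all genes, limma-voom gave 2845 higher and 4639 lower in total RNA, in place of 2829 and 4498. In total over 4sU RNA, 1 became 2 with limma-voom, the re-sequencing run or clone 1 alone, 0 with TMM within each assay or clone 2 alone, 4 with library size alone, and 0 to 4 with a culture left out. Over all genes, 550 higher and 1246 lower became 497 and 1065 with limma-voom and 382 and 743 in the re-sequencing run. With clone 1 and clone 2 alone they became 374 and 697, and 395 and 716. In the same measure, the member count was also changed by blocks. It became 3 with the culture as a block and 3 with the replicate number as a block, under which 4 were called in 4sU RNA, *Rnf2* among them in place of *Ezh1*, and 5 in total RNA. The labels do not say whether cultures with the same replicate number were handled together. Correlations between them were -0.0594 to 0.149, with 2 of 8 pairs above 0.1. These do not settle the question, because libraries paired by culture gave a similar range, 0.00311 to 0.12. Under the 2-fold rule all 3 counts were 0. The cause of these shifts was not tested.

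All values that changed sign were small and not called. In 4sU RNA they were -0.01 for *Eed* in the single-end run, 0.07 for *Suz12* with library size alone, and -0.03, -0.02 and -0.03 for *Mtf2* with DESeq2, the re-sequencing run and clone 2 alone. In total RNA they were -0.01 for *Ring1* with clone 2 alone, and 0.03, 0.09 and 0.04 for *Cbx7* with TMM within each assay, library size alone and no filter. With a culture left out the values in 4sU RNA ran from -0.00 to 0.13 for *Eed*, -0.04 to 0.09 for *Mtf2* and -0.04 to 0.29 for *Ring1*, and those of *Ring1* from -0.01 to 0.07 in total RNA and from -0.30 to 0.11 in total over 4sU RNA. Counts per 4sU library were low for *Ring1* (25 to 50), *Ezh1* (53 to 117) and *Bmi1* (93 to 198).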

Other observations

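*Usp7* and *Mga*, partners of variant PRC1 complexes, moved differently although both fell in total over 4sU RNA. *Usp7* rose in level from 394 ± 36.6 CPM (SD, n = 3) to 451 ± 20.5 CPM (n = 4) in 4sU RNA, and went from 882 ± 23.1 to 734 ± 7.17 CPM in total RNA. *Mga* went from 291 ± 12.3 to 371 ± 34.4 CPM in 4sU RNA and from 648 ± 8.97 to 667 ± 27.5 CPM in total RNA, where the groups overlapped.

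*Aebp2*, *Pcgf1* and *Rybp* lie on chromosome 6, as *Ezh2* and *Phc1* do, and were chosen here for their place. Relative to the chromosome 6 median, the log2 fold change in total RNA was -0.26 for *Aebp2*, a PRC2 subunit, -0.43 for *Pcgf1*, a PRC1 subunit, and -0.01 for *Rybp*, a subunit of variant PRC1. Without this adjustment they were 0.17, 0.00 and 0.42, so that all 3 lay below the median of their chromosome, as did *Ezh2* and *Phc1* in total RNA.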
